A study of Mus musculus with 18 samples.

Results

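The hepatocyte lineage transcription factors examined here are Hnf4a, Cebpa, Cebpb, Cebpd, Foxa1, Foxa2, Foxa3, Onecut1 and Nr5a2. They were chosen by name, as the rows of the deposited expression table whose Ensembl identifiers carry these symbols in GENCODE vM21, and all 9 were found among 47729 gene rows. The series profiled liver RNA from mice after ischemia-reperfusion, in which blood flow to the liver is interrupted and then restored, or after sham surgery. The labels describe 18 samples, 3 for each combination of surgery and genotype, the genotypes being Il22-/-, Il22bp-/- and Wt. The cytokine IL-22 signals to hepatocytes and epithelial cells, and IL-22BP, the product of Il22ra2, binds and neutralizes it. Both surgery groups thus hold mice of all 3 genotypes. The sources used here do not give the age, sex or strain of the mice, the length of ischemia or the time of reperfusion.

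The 18 columns of the table are headed IR1 to IR9 and W1 to W9. The 9 IR columns were taken as the ischemia-reperfusion livers and the 9 W columns, by elimination, as the sham livers. No header gives a genotype, so genotypes are mixed in every comparison and the effect of either deletion was not analysed here. The deletions could not be checked for the same reason. Il22 had no read in any of the 18 libraries, which allows up to 3 reads in each, and Il22ra2 had between 0 and 47.6 normalized counts in ischemia-reperfusion livers and between 0 and 56.0 in sham livers. The labels number the samples within each group but do not say whether each came from its own mouse, so p-values measure the spread between these samples.

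Hepatocytes keep their identity through a small network of transcription factors that bind each other's genes and the genes of liver function. HNF4A is a nuclear receptor required for the expression of apolipoproteins, clotting factors and much of liver metabolism. C/EBP alpha, encoded by Cebpa, drives metabolic genes in the resting liver, whereas C/EBP beta and C/EBP delta, encoded by Cebpb and Cebpd, are induced by inflammatory cytokines and activate acute phase genes. The FOXA proteins open chromatin at liver enhancers, ONECUT1 (also called HNF6) acts in liver and bile duct development and in glucose metabolism, and NR5A2 (also called LRH-1) is a nuclear receptor of bile acid and cholesterol metabolism.

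Promoter sequences are shown for 4 factors, Hnf4a and Cebpb as factors with higher and Cebpa and Onecut1 as factors with lower normalized counts after ischemia-reperfusion. Hnf4a is shown at both of its RefSeq starts, which lie 40298 bases apart and whose transcripts are pooled in the gene-level counts. Each line gives the 250 bases before the start in GRCm38.p6, 5′ to 3′ on the plus strand, with motif matches in capitals.
Hnf4a, upstream start, chr2:163506607-163506856: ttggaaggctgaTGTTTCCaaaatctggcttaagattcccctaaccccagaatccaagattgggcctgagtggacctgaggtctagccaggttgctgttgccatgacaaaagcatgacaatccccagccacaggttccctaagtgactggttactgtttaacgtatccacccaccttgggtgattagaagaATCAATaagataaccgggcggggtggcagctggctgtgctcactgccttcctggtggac
Hnf4a, downstream start, chr2:163546905-163547154: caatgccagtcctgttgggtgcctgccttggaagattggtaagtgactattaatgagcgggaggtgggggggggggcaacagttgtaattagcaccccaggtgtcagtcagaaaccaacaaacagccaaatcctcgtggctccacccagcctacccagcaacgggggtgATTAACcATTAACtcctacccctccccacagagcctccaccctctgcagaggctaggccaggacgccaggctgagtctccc
Cebpa, chr7:35119043-35119292: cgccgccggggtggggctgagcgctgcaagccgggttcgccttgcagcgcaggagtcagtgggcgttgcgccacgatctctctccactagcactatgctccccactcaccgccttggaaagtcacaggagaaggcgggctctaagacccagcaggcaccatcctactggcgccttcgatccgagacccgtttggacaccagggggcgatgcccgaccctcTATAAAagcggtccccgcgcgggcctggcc
Cebpb, chr2:167688665-167688914: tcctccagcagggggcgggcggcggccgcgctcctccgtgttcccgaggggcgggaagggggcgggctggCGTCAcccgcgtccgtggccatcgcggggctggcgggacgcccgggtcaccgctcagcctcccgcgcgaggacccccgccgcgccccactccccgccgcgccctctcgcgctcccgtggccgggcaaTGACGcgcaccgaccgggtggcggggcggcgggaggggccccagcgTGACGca
Onecut1, chr9:74861671-74861920: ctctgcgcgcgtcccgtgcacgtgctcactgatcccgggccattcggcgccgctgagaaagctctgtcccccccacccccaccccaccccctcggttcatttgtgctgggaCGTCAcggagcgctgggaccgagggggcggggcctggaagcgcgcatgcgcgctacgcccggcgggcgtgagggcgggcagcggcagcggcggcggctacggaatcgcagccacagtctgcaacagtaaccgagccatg

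Matches were searched on both strands in windows of 250 bases before to 50 bases after each RefSeq start, and a match describes letters and not a bound site. The table of promoters held 12 such windows for 8 of the 9 factors. It held no window for Cebpd, so Cebpd was not searched for any motif. In the upstream Hnf4a window the capitals mark a FOXA match (TGTTTNC, in 20.5% of all 32851 windows) and an ONECUT match (ATTGAT, in 7.54%). In the downstream Hnf4a window they mark a pair of HNF1 matches (GTTAAT, in 7.1%), 81 and 74 bases before the start. The Cebpa window holds a TATA match (TATAAA, in 13.6%) 30 bases before the start. The Cebpb window holds 3 matches to the core of the CRE motif (TGACG, in 20.8%), and a TATA match that lies 21 bases past the annotated start and is not shown. The Onecut1 window holds 1 such CRE match. The C/EBP motif (TTGCNNAA, in 10.8%) was matched once, at the second Nr5a2 start. The STAT motif (TTCNNNGAA, in 8.3%) and the NR5A motif (AAGGTCA, in 4.72%) were matched in 0 of the 12 windows. GC content was 80.7% in the Cebpb window, 73.0% in Onecut1, 67.3% in Cebpa and 54.0% and 57.3% in the Hnf4a windows, against a median of 52.7% over all windows.

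All 9 factors were expressed above the minimum used for testing, a mean of 10 normalized counts over the 18 libraries. By limma's test on log2(normalized count + 1), with Benjamini-Hochberg adjustment over 12686 genes and a threshold of 0.05, 5 factors were higher after ischemia-reperfusion (Hnf4a, Cebpb, Cebpd, Foxa1 and Foxa3), 3 were lower (Cebpa, Onecut1 and Nr5a2) and Foxa2 did not pass. Surgery moved most of the transcriptome: 38.3% of genes tested were called higher and 37.7% lower, so the factors' counts stand close to the background. A log2 fold change of at least 1 was reached by 1 factor upward, Cebpd, and 1 downward, Onecut1, against 15.6% and 17% of all genes tested. The median log2 fold change of the 9 factors was 0.36, against 0.02 for all genes tested.

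**Figure D1:**
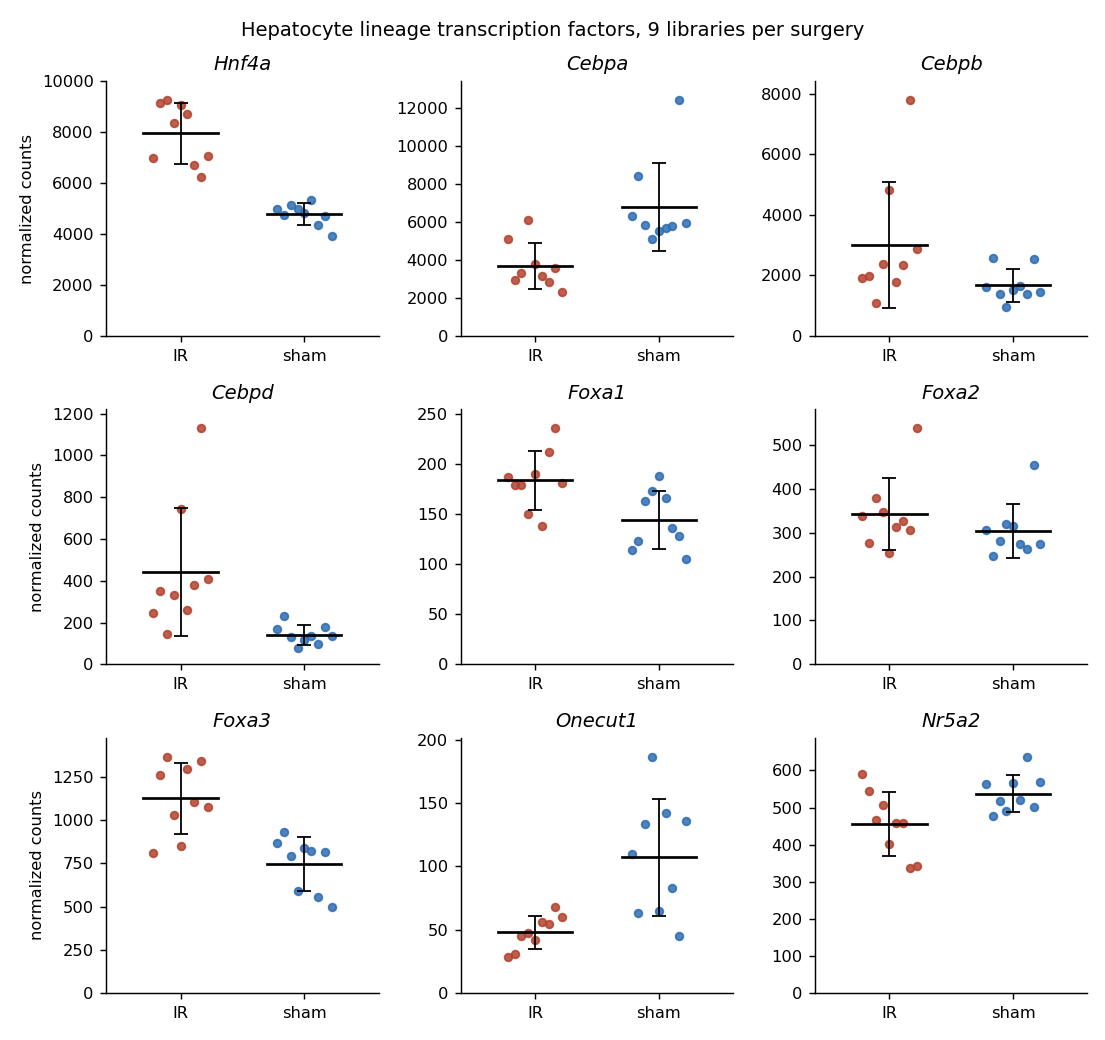
Normalized counts (vertical axes, starting at 0) of the 9 factors in the 9 ischemia-reperfusion (IR) and 9 sham libraries, with points for libraries, horizontal lines for means and bars for the SD. Hnf4a is the factor whose groups do not overlap, and IR8 is the highest Cebpb and Cebpd library, at 7795 and 1129 normalized counts.

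Recovered read totals were 10176617 to 12558179 per library in ischemia-reperfusion livers and 10716890 to 12763837 in sham livers. Over the genes tested, the log2 fold change rose with the GC content of the annotated transcripts, by 0.83 for each 10 points of GC (Pearson r = 0.40 over 12662 genes, which are not independent replicates). The factors span 48.5% to 67.2% GC. A fit after removing each library's own trend with GC content, chosen after seeing the data, is therefore given beside each factor. In that fit 2 factors were called higher (Hnf4a and Cebpd) and 3 lower (Cebpa, Foxa2 and Onecut1), against 38.2% and 34.8% of all genes tested, and the median of the 9 factors was -0.17. Whether the trend arose in the livers or in the libraries was not tested.

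**Figure D2:**
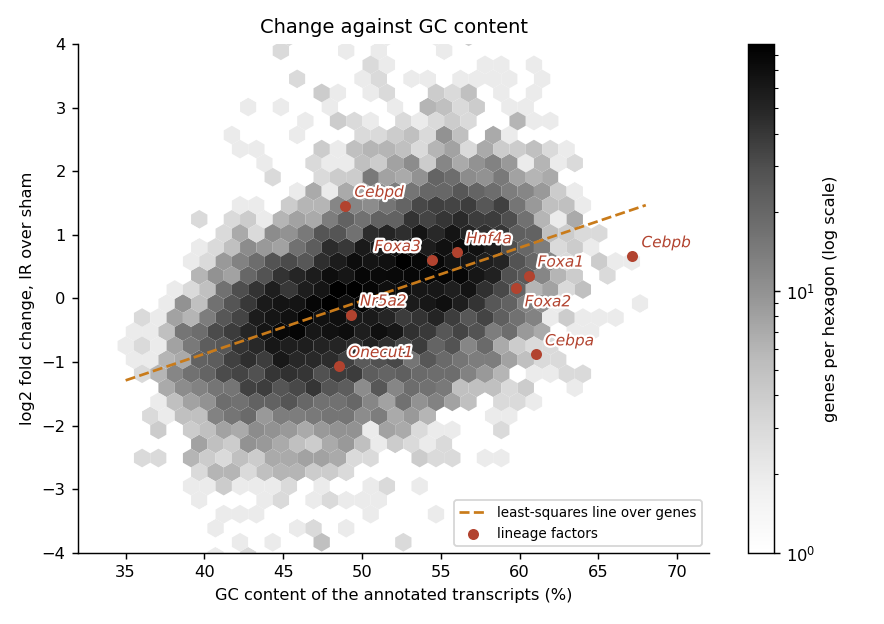
Log2 fold change of ischemia-reperfusion over sham (vertical axis) against the GC content of the annotated transcripts (horizontal axis, %), with the number of genes per hexagon in grey and the 9 factors in red; genes outside the plotted range are not shown. The dashed line rises by 0.83 per 10 points of GC, and Cebpa lies below it and Cebpd above it.

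Hnf4a (ENSMUSG00000017950, chr2:163506808-163572910, plus strand, GRCm38), the nuclear receptor at the centre of the network, was higher after ischemia-reperfusion. It had 6259 to 9272 normalized counts in ischemia-reperfusion livers (median 8375.5) and 3918 to 5329 in sham livers (median 4828). All 9 ischemia-reperfusion libraries lay above the highest sham library, a separation seen upward in 19.9% and downward in 20.3% of genes tested. The log2 fold change was 0.72 (95% confidence interval 0.53 to 0.92; limma, adjusted p = 6.57e-07), a 1.65-fold higher level. Correction for GC content left a log2 fold change of 0.26 (0.05 to 0.46; limma, adjusted p = 0.024). The antisense gene Hnf4aos, which shares no exon bases with Hnf4a, had medians of 18.9 and 69.9 normalized counts in ischemia-reperfusion and sham livers.

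Cebpa (ENSMUSG00000034957, chr7:35119293-35121928, plus strand), the C/EBP factor of the resting liver, was lower after ischemia-reperfusion. It had 2332 to 6114 normalized counts in ischemia-reperfusion livers (median 3321) and 5109 to 12414 in sham livers (median 5840). The groups overlapped through IR4, at 6114, and the other 8 ischemia-reperfusion libraries lay below the lowest sham library. Cebpa had a log2 fold change of -0.88 (95% confidence interval -1.26 to -0.50; limma, adjusted p = 0.000193), and -1.54 after GC correction (limma, adjusted p = 5.46e-09). W8, with 12414 normalized counts, and W2, with 8414, were the highest sham libraries. The same 2 libraries had the steepest rise of level with GC content among the sham libraries, 0.24 and 0.20 log2 units per 10 points. IR4 had the steepest rise among the ischemia-reperfusion libraries, 0.24 log2 units per 10 points. The part of that trend in the Cebpa levels of these libraries was not tested.

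Cebpd (ENSMUSG00000071637, chr16:15887286-15891031, plus strand), an immediate target of cytokine signals, showed the largest change upward among the 9 factors. It had 145 to 1129 normalized counts in ischemia-reperfusion livers (median 350.2) and 78.7 to 233 in sham livers (median 134). IR3, at 145, lay within the sham range, and the other 8 ischemia-reperfusion libraries lay above it. The log2 fold change was 1.46 (95% confidence interval 0.83 to 2.08; limma, adjusted p = 0.000175), a 2.74-fold higher level, and 1.58 after GC correction (limma, adjusted p = 0.000118).

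Cebpb (ENSMUSG00000056501, chr2:167688915-167690418, plus strand), the second cytokine-induced C/EBP factor, was called higher with a wide spread. It had 1076 to 7795 normalized counts in ischemia-reperfusion livers (median 2340) and 958 to 2586 in sham livers (median 1509). IR8 at 7795, IR5 at 4810 and IR9 at 2885 lay above the sham range, and the other 6 ischemia-reperfusion libraries lay within it. The log2 fold change was 0.66 (95% confidence interval 0.07 to 1.26; limma, adjusted p = 0.0408). The call was lost when IR8 was left out, with a log2 fold change of 0.46 (limma, adjusted p = 0.0785), when any of IR5, IR9, W1, W3, W4, W5, W6, W7 or W9 was left out, and after GC correction, with -0.014 (-0.46 to 0.43; limma, adjusted p = 0.955). At 67.2%, Cebpb had the highest GC content of the 9 factors. The slope of level with GC content was 0.22 log2 units per 10 points in IR8, -0.01 in IR5 and -0.05 in IR9. The part of these slopes in the Cebpb levels was not tested.

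The levels of Cebpb and Cebpd followed each other from library to library. Each was the other's closest match among all genes tested after group means were removed (Pearson r = 0.97 over 18 libraries, given as a likeness of libraries that share depth and base composition). IR8 and IR5 were the highest and IR3 the lowest ischemia-reperfusion library for both. The ratio of Cebpd to Cebpb, each per kilobase of exon, was nevertheless 0.0513 to 0.0707 in ischemia-reperfusion livers and 0.0281 to 0.0427 in sham livers, with no overlap. The ratio of Cebpb to Cebpa per kilobase was 0.568 to 3.83 in ischemia-reperfusion livers (median 1.18) and 0.329 to 0.539 in sham livers (median 0.428). Cebpb thus exceeded Cebpa per kilobase in 5 of 9 ischemia-reperfusion libraries and in 0 of 9 sham libraries. The ratio of Hnf4a to Cebpa was 0.748 to 1.69 in ischemia-reperfusion livers and 0.207 to 0.535 in sham livers. These ratios are descriptions and were not tested.

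**Figure D3:**
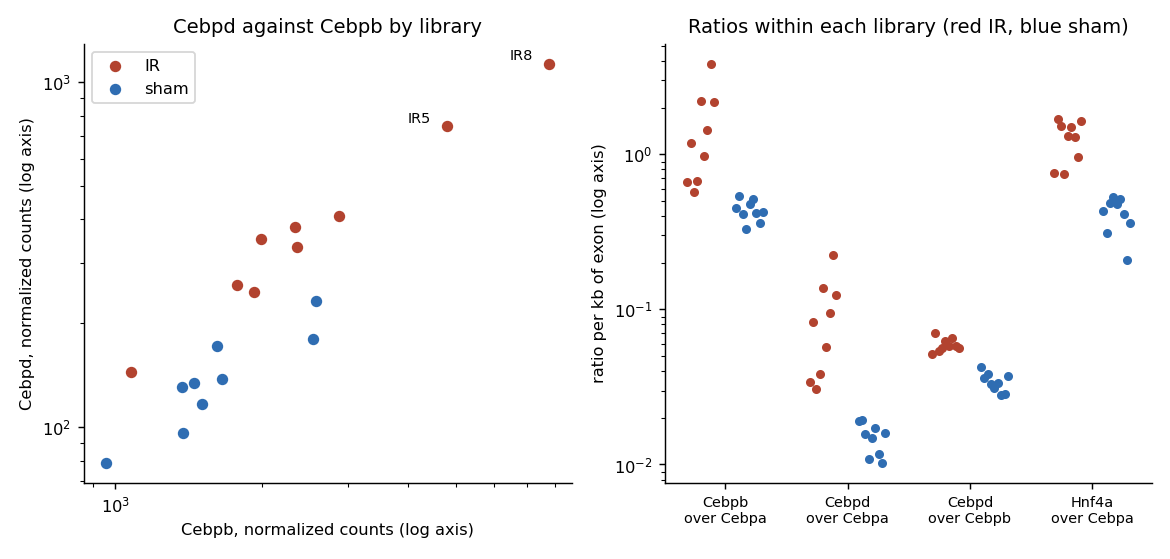
Left, Cebpd against Cebpb in normalized counts on log axes, one point per library, ischemia-reperfusion (IR) in red and sham in blue; right, ratios per kilobase of exon within each library on a log axis. IR5 and IR8 lie at the upper end of both genes, and each of the 4 ratios is higher in all 9 ischemia-reperfusion libraries than in the highest sham library.

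Summed neutrophil markers were highest in the 2 libraries with the highest Cebpb and Cebpd. All 6 tested of 8 listed markers were called higher after ischemia-reperfusion, against 38.3% of all genes tested. Of these, Retnlg, Mmp8 and Cxcr2 had sham means of 2.27, 1.19 and 1.88 normalized counts. They passed the minimum only through the ischemia-reperfusion libraries, so their direction was fixed by that filter. The summed level of the listed markers was 308 to 3970 normalized counts in ischemia-reperfusion livers and 51.8 to 122 in sham livers. The sum was highest in IR8 and IR5, at 3970 and 2493, and lowest among ischemia-reperfusion libraries in IR3, at 308. The summed cholangiocyte markers were also lowest in IR3, at 850, and highest in IR5, at 14613, then in IR7, at 8800, and IR8, at 7290. The order did not follow Cebpb throughout. IR7 had a neutrophil sum of 2333 with Cebpb within the sham range, at 2340. IR9 had a neutrophil sum of 1169 with Cebpb above that range, at 2885. Retnlg and Cxcr2, which are defining neutrophil genes, had medians of 118 and 46.4 normalized counts in ischemia-reperfusion livers and of 2.07 each in sham livers. Myeloid cells express Cebpb and Cebpd too, and the part of either cell type in the result was not tested. In these bulk samples, fewer cells of a type and less RNA per cell cannot be told apart. Tmem189 shares exon bases with Cebpb on the other strand and had medians of 208 and 73.3 normalized counts in ischemia-reperfusion and sham livers, and Spidr does so with Cebpd, at 71.1 and 62.3. Gm45091 does so with Cebpa, at 3.92 and 19.6. The sources used here do not say whether counting used the strand, so reads of such pairs cannot be told apart.

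Foxa3 (ENSMUSG00000040891, chr7:19013284-19023538, minus strand), the most abundant of the FOXA pioneer factors here, was higher after ischemia-reperfusion. It had 807 to 1367 normalized counts in ischemia-reperfusion livers (median 1107) and 497 to 932 in sham livers (median 816). Of the ischemia-reperfusion libraries, 7 lay above the highest sham library. Its log2 fold change was 0.60 (95% confidence interval 0.32 to 0.88; limma, adjusted p = 0.000452), and 0.24 after GC correction, which did not pass (limma, adjusted p = 0.0946).

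Foxa1 (ENSMUSG00000035451, chr12:57540628-57546916, minus strand) had 138 to 235 normalized counts in ischemia-reperfusion livers (median 181) and 105 to 188 in sham livers (median 136). The groups overlapped over most of their range. The log2 fold change was 0.36 (95% confidence interval 0.10 to 0.61; limma, adjusted p = 0.0121), and -0.30 after GC correction (limma, adjusted p = 0.0709). Foxa2 (ENSMUSG00000037025, chr2:148042877-148046969, minus strand) had 253 to 537 normalized counts in ischemia-reperfusion livers (median 326) and 247 to 453 in sham livers (median 282). Its log2 fold change of 0.16 did not pass (95% confidence interval -0.11 to 0.43; limma, adjusted p = 0.267), and after GC correction it was -0.48 and was called lower (limma, adjusted p = 0.00364). The direction of Foxa1 and Foxa2 thus turned with the correction, and the call of Foxa1 was also lost under quantile normalization (limma, adjusted p = 0.0691) and with array weights (0.0788).

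Onecut1 (ENSMUSG00000043013, chr9:74861921-74891781, plus strand), the least abundant of the 9 factors, was lower after ischemia-reperfusion. It had 28.2 to 67.8 normalized counts in ischemia-reperfusion livers (median 47.0) and 45.0 to 187 in sham livers (median 110). The sham libraries were widely spread, with 6 of them above the highest ischemia-reperfusion library, and W8 was the lowest. This gave a log2 fold change of -1.06 (95% confidence interval -1.57 to -0.56; limma, adjusted p = 0.000506), which is 2.09-fold lower, and -0.90 after GC correction (limma, adjusted p = 0.00207). Size factors lay between 0.866 and 1.34, so these values are close to read numbers and carry the largest counting error of the 9.

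Nr5a2 (ENSMUSG00000026398, chr1:136842571-136960448, minus strand), the nuclear receptor of bile acid synthesis, changed least among the factors called lower. It had 336 to 591 normalized counts in ischemia-reperfusion livers (median 458) and 478 to 637 in sham livers (median 520). Of the ischemia-reperfusion libraries, 6 lay below the lowest sham library, with IR8 and IR9 lowest at 336 and 341. The log2 fold change was -0.26 (95% confidence interval -0.47 to -0.04; limma, adjusted p = 0.0293). The call was lost after GC correction, with -0.17 (limma, adjusted p = 0.133), and when any of IR5, IR8, IR9 or W7 was left out.

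**Figure D4:**
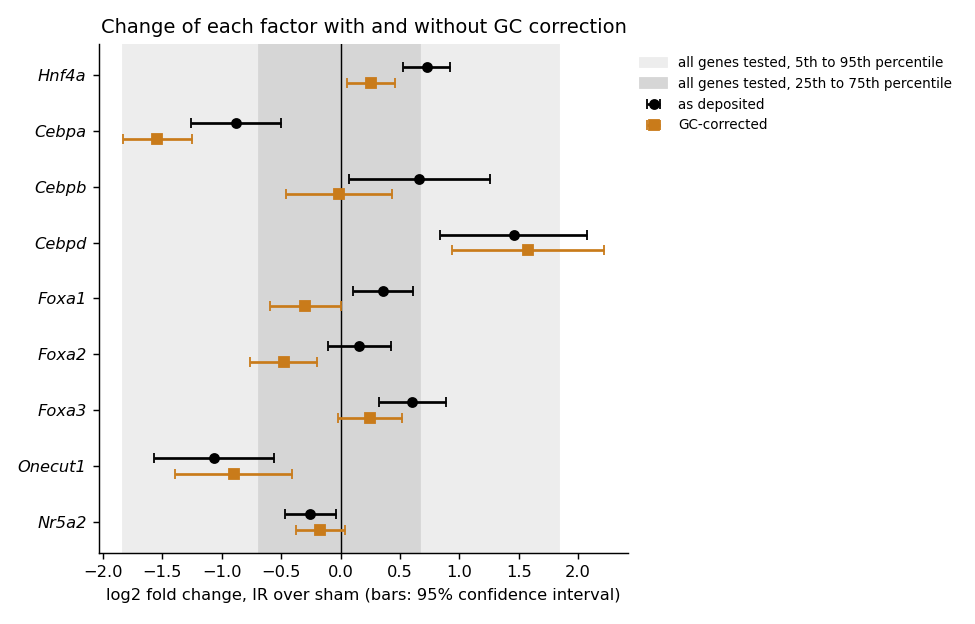
Log2 fold change of ischemia-reperfusion over sham (horizontal axis) for each factor, as deposited (black circles) and after GC correction (orange squares), with bars for the 95% confidence interval and grey bands for the spread of all genes tested. Hnf4a, Cebpa, Cebpd, Foxa3, Onecut1 and Nr5a2 keep their side of 0 in both fits. Foxa1, Foxa2 and Cebpb change sides, with Cebpb falling to -0.014.

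Set per kilobase of exon, the order of the mean levels differed between the groups at the top. In ischemia-reperfusion livers Cebpb averaged 1992 ± 1380 normalized counts per kilobase, Hnf4a 1649 ± 247 and Cebpa 1398 ± 451 (SD, n = 9), and the ranges of these 3 overlapped. In sham livers Cebpa averaged 2570 ± 878, Cebpb 1113 ± 361 and Hnf4a 991 ± 89.3 (SD, n = 9), and the lowest Cebpa library, at 1938, lay above the highest Cebpb library, at 1719. Foxa3 came next in both groups, at 553 ± 101 in ischemia-reperfusion livers and 366 ± 76.5 in sham livers. Foxa2 followed, at 144 ± 34.7 and 128 ± 25.8 in ischemia-reperfusion and sham livers. Cebpd stood above Nr5a2 and Foxa1 in ischemia-reperfusion livers, at 118.5 ± 81.7, and below both in sham livers, at 37.9 ± 12.5. Its range overlapped those of Foxa2, Nr5a2 and Foxa1 in ischemia-reperfusion livers and those of Foxa1 and Onecut1 in sham livers. Onecut1 was lowest in both, at 11.7 ± 3.18 in ischemia-reperfusion livers and 26.1 ± 11.3 in sham livers.

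Other transcription factors of hepatocytes were described in the same way. Of 31 listed factors, 30 were tested, 12 were higher, 14 were lower and 4 did not pass, with a median log2 fold change of -0.07. These counts are near the 38.3% higher and 37.7% lower of all genes tested, and after GC correction they were 9 and 15, with a median of -0.23. The clock-controlled PAR bZIP factor Dbp averaged 32.3 ± 26.1 normalized counts in ischemia-reperfusion livers and 1222 ± 259 in sham livers (SD, n = 9), a log2 fold change of -5.52 (limma, adjusted p = 9.04e-12). Its relative Tef fell by 2.62 on the log2 scale, and the glucocorticoid-induced factor Klf15 fell by 2.03. Rxra, the shared partner of many nuclear receptors and the factor listed with the highest mean normalized count over all 18 libraries, not set per kilobase, rose by 0.54, and this became -0.06 and was not called after GC correction (limma, adjusted p = 0.641). Of 3 C/EBP relatives, the stress factor Ddit3 rose by 1.88, while Cebpg, at 0.01, and Cebpe, at -0.60, did not pass. After GC correction Cebpg was called higher, at 0.21 (limma, adjusted p = 0.0321), and Cebpe lower, at -1.26 (limma, adjusted p = 0.01).

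**Figure D5:**
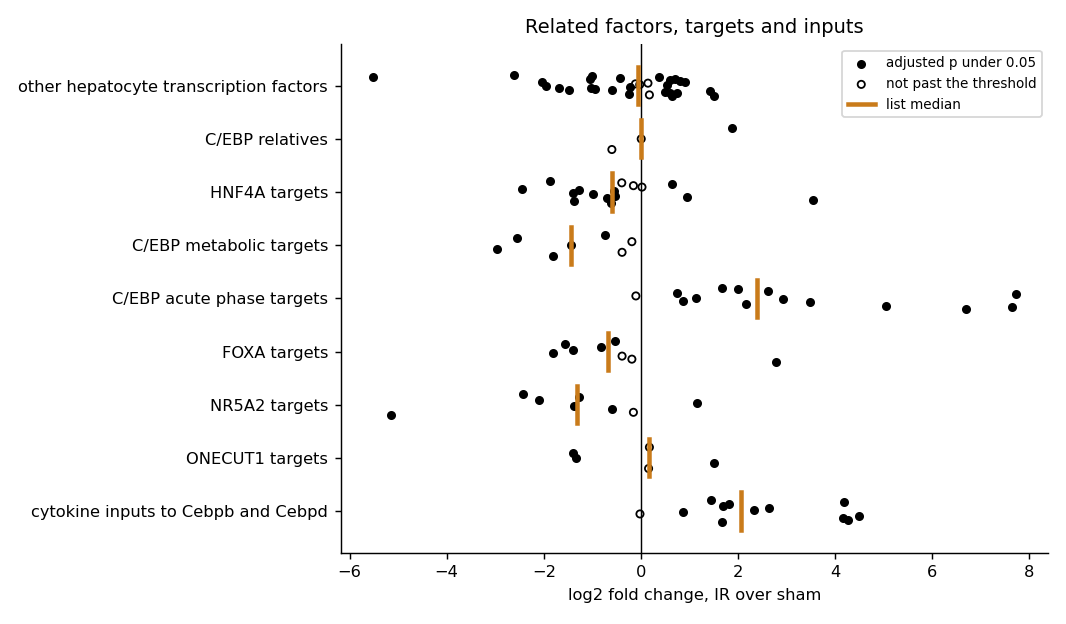
Log2 fold change of ischemia-reperfusion over sham (horizontal axis) for members of 9 gene lists, filled where the adjusted p was under 0.05 and open otherwise, with orange bars for list medians. Members of the acute phase and cytokine lists lie mostly right of 0, and members of the metabolic, HNF4A, FOXA and NR5A2 lists mostly left.

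Known targets of the factors were described by list, and some genes stand in more than 1 list. Of 16 HNF4A targets, 3 were higher, 10 were lower and 3 did not pass, with a median log2 fold change of -0.59, against 38.3% higher, 37.7% lower and a median of 0.02 over all genes tested. The ornithine transcarbamylase gene Otc fell by 2.45, the pyruvate kinase gene Pklr fell by 1.87 and the transthyretin gene Ttr fell by 1.39, whereas the apolipoprotein gene Apoa4 rose by 3.56. Hnf4a itself was higher in the same libraries. Of 8 FOXA targets, 1 was higher, 5 were lower and 2 did not pass, with a median of -0.68 and the same background shares. Igfbp1, which encodes a binding protein of insulin-like growth factors, rose by 2.78, and the bile salt export pump gene Abcb11 fell by 1.57.

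Targets of the C/EBP factors were listed as metabolic or acute phase genes, and the difference between the lists was not tested. Of 7 metabolic targets, 5 were lower and 2 did not pass, with a median log2 fold change of -1.44, against 37.7% of all genes tested called lower. The liver glycogen synthase gene Gys2 averaged 599 ± 203 normalized counts in ischemia-reperfusion livers and 4490 ± 1051 in sham livers (SD, n = 9), and fell by 2.97 on the log2 scale (limma, adjusted p = 2.86e-10). Ugp2, of glycogen synthesis, fell by 2.55, the albumin gene Alb fell by 1.80 and the urea cycle gene Cps1 fell by 1.44. Of 14 acute phase targets, 13 were higher and 1, Crp, did not pass, with a median of 2.39, against 38.3% of all genes tested called higher. After GC correction Crp was called higher too, at 0.71 (limma, adjusted p = 0.00361). The lipocalin gene Lcn2 rose by 7.74, the serum amyloid genes Saa2, Saa1 and Saa3 by 7.65, 6.69 and 5.06, and the fibrinogen gene Fga by 2.62. Saa1 and Saa2 are near-identical copies, so the split of reads between them is uncertain.

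Cytokines, receptors and signal carriers that act upstream of Cebpb and Cebpd were listed as well. Of 14 listed, 12 were tested, 11 were higher and 1, Il6ra, did not pass, with a median log2 fold change of 2.07, against 38.3% of all genes tested called higher. After GC correction 10 were called higher. The IL-6 family cytokine genes Clcf1, Osm and Lif rose by 4.50, 4.27 and 4.16. The feedback inhibitor gene Socs3 rose by 4.19 and the transcription factor gene Stat3 by 1.82. Osm and Lif were near 0 in sham livers, where their medians were 0 and 1.04 normalized counts, so their fold changes depend on the pseudocount of 1.

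Of 8 NR5A2 targets, 1 was higher, 6 were lower and 1 did not pass, with a median log2 fold change of -1.32, against 38.3% higher and 37.7% lower over all genes tested. Cyp7a1, the rate-limiting enzyme of bile acid synthesis, averaged 160 ± 123 normalized counts in ischemia-reperfusion livers and 4407 ± 1743 in sham livers (SD, n = 9), and fell by 5.14 on the log2 scale (limma, adjusted p = 2.76e-09). The deiodinase gene Dio1 fell by 2.42 and the sterol transporter gene Abcg5 fell by 2.10. Of 5 ONECUT1 targets, 1 was higher, 2 were lower and 2 did not pass, with a median of 0.16, and after GC correction 2 were higher and 3 lower. Foxa2, 1 of the 9 factors, is itself among these targets, and its values, 0.16 and -0.48 after GC correction, are the list medians. Pfkfb1, of glycolytic control, fell by 1.33, and Ttr is also in this list.

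The genes tested whose levels were most like each factor's, after group means were removed and over the 18 libraries, are given as a likeness and without a test. Cebpa was most like Cox6a1 (Pearson r = 0.96), Stard10 (0.94) and Stk11 (0.94), whose transcripts hold 57.5% to 60.8% GC, close to the 61.0% of Cebpa. Nr5a2 was most like Nadk2, Gm4788 and Acbd5, with r between 0.92 and 0.93. After each other, Cebpb and Cebpd shared their next matches, Asb6 and Rhog, with r between 0.94 and 0.95. The other factors had weaker matches. Hnf4a was most like E030030I06Rik (0.81), Man1b1 (0.80) and Sept5 (0.79), and Foxa2 most like Snrnp40 (0.83), Sf3a3 (0.79) and Tango2 (0.77). Foxa1 was most like Ubp1 (0.76), Rab3gap2 (0.74) and Map2k6 (0.74), and Foxa3 most like Entpd6 (0.79), Arhgef15 (0.78) and Atoh8 (0.75). Onecut1 was most like Snapc4, Kmt2e and Jmjd4, with r of 0.80, 0.80 and 0.78.

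The labelled tissue was checked against cell type markers. Over all genes tested, 38.3% were called higher and 37.7% lower, and the counts below stand beside these shares. All 7 hepatocyte markers found of 8 listed were expressed and lower after ischemia-reperfusion, and their summed level was 620910 to 985930 normalized counts in ischemia-reperfusion livers and 2124300 to 2656500 in sham livers. Of the cholangiocyte markers, 4 of 5 tested were higher, with a sum of 850 to 14613 in ischemia-reperfusion livers and 373 to 745 in sham livers, and Cftr was below the minimum. After GC correction 3 were called higher. In ischemia-reperfusion livers Spp1 averaged 4289 and Sox9 1037 normalized counts, against 49.8 for Krt19 and 41.4 for Epcam, so the sum mainly follows Spp1 and Sox9. Onecut1, Foxa1 and Foxa2 are also made by bile duct cells, and the part of those cells in the results was not tested. Foxa2 and Nr5a2 are also made by pancreatic acinar cells, whose markers Cpa1 and Amy2a5 were at 0 in all 18 libraries. Prss2, Pnlip and Ctrb1 had a median of 0 but reads in some libraries. Of the 7 acinar markers, Cela1 alone was tested, and it was lower. It averaged 80.1 normalized counts in ischemia-reperfusion livers and 389 in sham livers. Kupffer cell and macrophage markers were higher in 2 and lower in 5 of 7, endothelial markers higher in 1 and lower in 3 of 6, stellate cell markers higher in 3 and lower in 3 of 6, and lymphocyte markers lower in 4 of 4 tested. The 3 erythroid markers tested had log2 fold changes between -0.68 and 0.93 and did not pass, Alas2 being nearest (limma, adjusted p = 0.0535).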

How the data were processed

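RNA was isolated from liver with Trizol and made into libraries with a NEBNext Ultra kit, per the labels' protocols. For build GRCm38, the submitters' processing notes list DESeq2 1.14, STAR 2.5.0a and Trimmomatic 0.33. The deposited values are normalized gene counts, a signal in which the authors had divided read counts by DESeq2 size factors; for the counter and its strand setting, the sources used here are silent. In all 18 columns 100% of values were whole multiples of 1 read (tolerance 0.001 reads), which gave whole reads and depths. Identifiers were matched to GENCODE vM21, and 47224 of 47729 had a symbol.

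The 9 IR columns were compared with the 9 W columns by limma 3.58.1 with an intensity trend, on log2(normalized count + 1) for genes with a mean of at least 10. Confidence intervals cover 95%. Fold changes are on that scale, which understates those of low genes. edgeR 4.0.16 and DESeq2 1.42.0 on recovered reads, other scalings, filters and pseudocounts, and each library left out were tried as alternatives, under R 4.3.3. The scripts were tested on simulated data. GC correction subtracted, per library, a loess curve (span 0.3) of deviations from gene means against GC content.

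Members and lists were chosen with earlier results of these data known. Named genes were the 9 factors, up to 4 called members with the largest change and the most abundant member of each list, and each factor's 3 most alike genes. Crp, Il6ra, Cebpe, Alas2, Cftr, Cpa1, Amy2a5, Prss2, Pnlip, Ctrb1 and genes sharing a locus were named after their values were seen. A few genes that the rule names are not reported here. Sequences are from RefSeq (GRCm38.p6), read from a table with 1 row per start; a further motif was dropped after its matches were seen. The header numbers did not pair libraries.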

Additional observations from a re-analysis of the deposited data

Results flagged for a closer look

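Of 20 groups of library values examined, 3 held 1 library far from the others, and chance alone sets apart about 1 in 20 such groups. In ischemia-reperfusion livers Foxa2 was 537 normalized counts in IR9, against 378 in the next highest library. In sham livers Foxa2 was 453 in W8, against 319 in the next highest. Cebpa in sham livers was 12414 normalized counts in W8, against 8414 in the next highest library. W8 was thus set apart for both genes.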

How the results depend on the processing

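Hnf4a, Cebpa, Cebpd and Onecut1 kept their direction and their call in all 33 alternatives run for each, with log2 fold changes of 0.26 to 1.19, -1.54 to -0.42, 1.26 to 1.64 and -1.29 to -0.90. After GC correction, chosen after seeing the data, 2 factors were called higher, Cebpb was at -0.014 (adjusted p = 0.955), Foxa1 at -0.30 (0.0709), Foxa2 at -0.48 (0.00364), Foxa3 at 0.24 (0.0946) and Nr5a2 at -0.17 (0.133); the cause was not tested. Quantile normalization ended the calls of Foxa1 (0.25, adjusted p = 0.0691) and Nr5a2 (-0.25, 0.0528), array weights that of Foxa1 (0.26, 0.0788), and leaving out both IR8 and W8, chosen after seeing the data, that of Nr5a2 (-0.22, 0.0567); the cause was not tested. With no filter, which tests more genes, Cebpb stayed at 0.66 but did not pass (0.0562). With each library left out in turn, Cebpb ranged from 0.46 to 0.82 and lost its call without IR5, IR8, IR9, W1, W3, W4, W5, W6, W7 or W9 (adjusted p up to 0.0841), and Nr5a2 ranged from -0.31 to -0.20 and lost it without IR5, IR8, IR9 or W7. Between 4 and 5 factors were then called higher and between 2 and 3 lower. Foxa2 was not called by any alternative other than GC correction. Over all alternatives 3920 to 6335 genes were called higher and 3808 to 5574 lower, against 4860 and 4781. With the header number as a replicate block, 5 factors were higher and 3 lower, as without it; same-numbered libraries correlated at -0.10 to 0.12, so the numbers were not taken as pairs. The exact two-sided permutation test over 48620 arrangements gave unadjusted p-values of 4.11e-05 for Hnf4a, the smallest it can give, and 0.0478 for Cebpb. Depth limits Onecut1 most, and counting error was not separated from the spread between libraries.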

Other observations

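A few more of the other listed hepatocyte transcription factors are given here; they were named after their values were seen and stand for no group. Ppara, the fatty acid receptor, averaged 300.4 ± 51.7 normalized counts in ischemia-reperfusion livers and 966 ± 168 in sham livers (SD, n = 9), a log2 fold change of -1.68. Nr1h4, the bile acid receptor, averaged 901 ± 323 in ischemia-reperfusion livers and 2350 ± 151 in sham livers, a log2 fold change of -1.47. The xenobiotic receptors Nr1i2 and Nr1i3 had log2 fold changes of -0.94 and -1.02. These 4 were called lower by limma, as were 37.7% of all genes tested, and were called lower after GC correction too, with log2 fold changes of -1.96, -1.14, -1.20 and -1.32. The endoderm factor Gata6 was 211 ± 95.7 in ischemia-reperfusion livers and 73.4 ± 11.7 in sham livers, a log2 fold change of 1.42, or 0.79 after GC correction. The oxysterol receptor gene Nr1h3 averaged 1288 ± 256 in ischemia-reperfusion livers and 1303 ± 233 in sham livers and did not pass. After GC correction Nr1h3 was called lower, with a log2 fold change of -0.55 (limma, adjusted p = 0.000284).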
